A study of Mus musculus with 4 samples.

Results

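The constitutive proteasome subunit genes were examined in B16-F10 cells, an established mouse melanoma line, cultured with or without recombinant Cdh1. The members were taken by name as the alpha (Psma), beta (Psmb), ATPase (Psmc) and non-ATPase (Psmd) genes of the proteasome, leaving out Psmb8, Psmb9 and Psmb10, whose products replace the constitutive catalytic subunits in the immunoproteasome. This gave 36 of the 23462 genes named on the array, with 57 of its 56605 probes. There were 8 alpha genes, 8 beta genes, 6 ATPase genes and 14 non-ATPase genes.

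The proteasome is the barrel-shaped protease that degrades proteins tagged with ubiquitin. Stacked rings of alpha and beta subunits form its core particle. The outer alpha rings gate the entrance, and the inner beta rings carry the catalytic sites, which belong to Psmb5, Psmb6 and Psmb7. A regulatory particle caps the core. The ring of Psmc ATPases in its base unfolds substrates, and the Psmd subunits of its base and lid bind ubiquitin and remove the chain before the substrate enters. Psmd5, Psmd9 and Psmd10 encode chaperones that help to assemble the base and are not part of the finished particle. Many subunit genes are transcribed together under the transcription factor encoded by Nfe2l1 when proteasome activity falls short.

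All cells were of this 1 line and were grown in medium with 10% fetal bovine serum. Control cultures received no recombinant protein, and the Cdh1 cultures received 100 ng/mL recombinant Cdh1, each for 24 h. The labels give the protein by this symbol alone. Each of 2 independent sets held 1 control and 1 Cdh1 culture, so that there were 2 one-colour arrays in each group.

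Between 59.29% and 61.33% of the 59305 non-control spots of an array were well above background, and none was saturated. Signals are log2 processed intensities relative to the 75th percentile of the same array, so that a signal of 0 is that percentile. Of 7 melanocyte markers, all were well above background on the 4 arrays. Of the markers of other cell types, 3 of 6 leukocyte, 3 of 6 fibroblast, 2 of 5 epithelial and 1 of 4 endothelial genes were also well above background on all arrays. The defining leukocyte gene Ptprc and the epithelial genes Epcam, Krt8 and Krt18 were so on 0 arrays, whereas Itgam, a myeloid integrin, had signals of 3.22 to 3.44. Across 31155 probes well above background everywhere, the correlation between arrays was 0.9976 and 0.9978 within the sets and 0.9908 to 0.9922 between them. Both comparisons were therefore made for the subunit genes, Cdh1 against control and set 2 against set 1.

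The constitutive subunit genes were strongly expressed. Of the 36 genes, 34 were well above background on all 4 arrays, and these 34 also lay above the 75th percentile on every array. Among all 14450 genes tested, 7762 (53.72%) did so. The detected alpha genes had signals of 3.91 to 5.69, the beta genes 0.93 to 5.96, the ATPase genes 3.74 to 6.82 and the non-ATPase genes 0.57 to 5.89. These signals come from different probes and give no order of transcript abundance between genes.

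The remaining 2 genes encode tissue-restricted subunits. Psma8, the alpha subunit of the testis proteasome, had signals of -7.83 (control) and -8.00 (Cdh1) in set 1 and of -8.11 and -7.69 in set 2. Psmb11, the catalytic subunit of the thymus proteasome, had signals of -7.96, -8.13, -7.37 and -7.74. Neither was well above background on any array, and neither was tested.

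**Figure D1:**
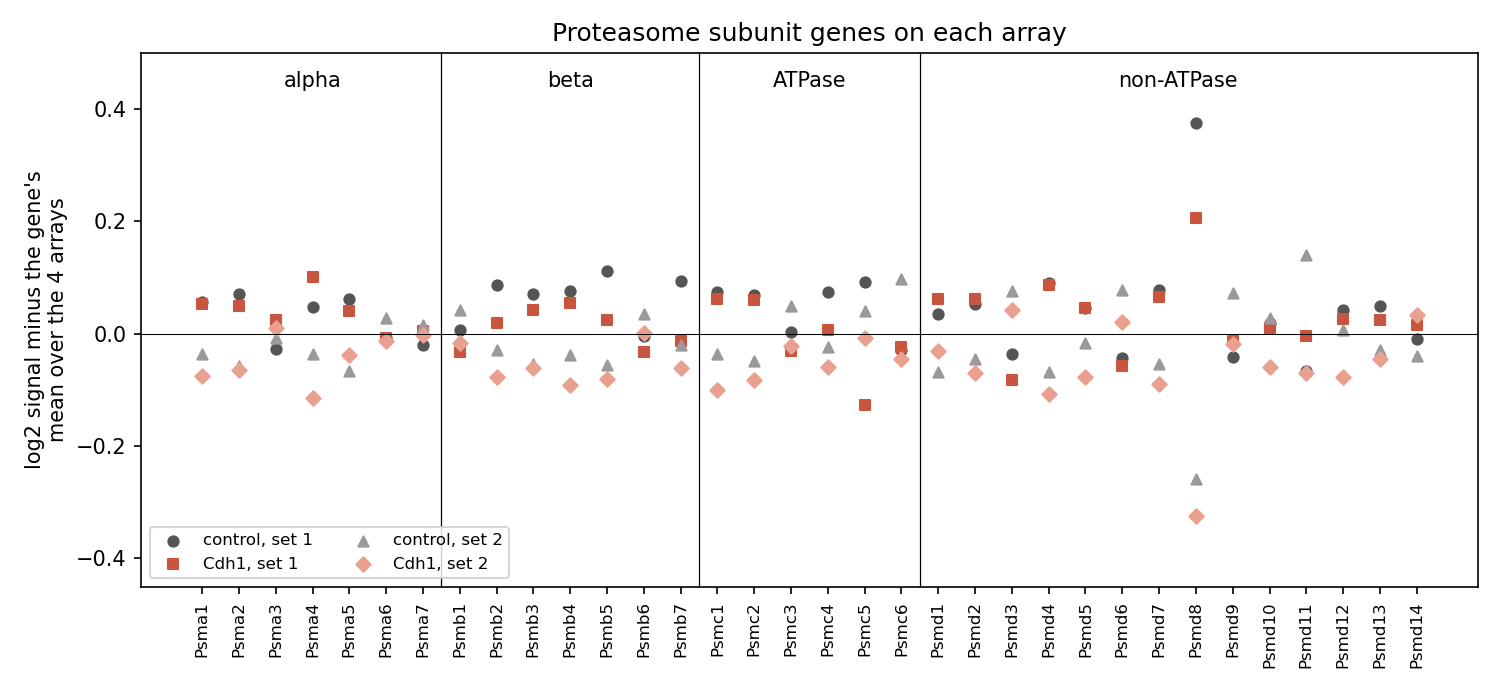
The vertical axis gives the log2 signal of each of the 34 tested subunit genes on each array minus that gene's mean over the 4 arrays, and the horizontal axis lists the genes by subunit class. Most points lie close to the gene's mean, whereas those of Psmd8 spread from 0.38 above it in control set 1 to -0.32 in Cdh1 set 2.

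No difference between Cdh1 and control cultures was detected for any constitutive subunit gene. Of the 34 genes tested, 0 passed an adjusted p of 0.05 by limma with Benjamini-Hochberg adjustment, and the share of all genes that passed was 0%. Before adjustment 0 subunit genes had a p under 0.05, against 1.1% of all genes and 0 of the 7762 genes above the 75th percentile. All 34 subunit genes were among these 7762, and no gene of that group reached such a p without a block. Their count of 0 is therefore not a result about the subunit genes. The lowest unadjusted p of a subunit gene was 0.295 (limma), for Psmc5. With the set as a block, 0 subunit genes passed, and the lowest adjusted p was 0.840 (limma), for Psmd8. At an unadjusted p under 0.05 with the block there were also 0 subunit genes. The shares were 3.73% of all genes and 0.103% of those above the 75th percentile. Mean differences on the log2 scale ran from -0.13 to 0.05. None of the 34 genes differed by 1.1-fold in the mean, whereas 14.7% of all genes and 1.91% of those above the 75th percentile did.

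The intervals show which changes the values of the 4 arrays leave possible for single genes, without adjustment for the number of genes. For the 33 genes other than Psmd8, the 95% intervals of the difference lay within -0.44 and 0.35 on the log2 scale, which corresponds to 1.36-fold lower and 1.28-fold higher. For Psmd8 the interval ran from -0.98 to 0.75, since its signal differed between the sets. With the set as a block, the intervals of all 34 genes lay within -0.39 and 0.24, or 1.31-fold lower and 1.18-fold higher. The standard errors were 0.06 to 0.10 with the block and 0.10 to 0.31 without it. Those given below for Cdh1 are without the block unless stated.

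Within these limits the small differences leaned to one side on the percentile scale. In the mean, 29 of the 34 genes were lower with Cdh1, against 58.6% of all genes and 66.3% of those above the 75th percentile. This count changed with the scaling, as did the share of all genes. It was 21 after quantile normalization (55.67% of all genes) and 23 after background modelling and quantile normalization (55.07%). It was 34 after median centring (83.31%) and 19 in the authors' deposited table (43.84%). Median centring and the authors' table shift all genes of an array alike. The same shares stand beside the counts of the subunit classes below. The count also changed without 1 array, to 15 without the control of set 1 and 15 without the Cdh1 array of set 2. It was 29 without the Cdh1 array of set 1 and 27 without the control of set 2. Leaving out 1 array makes the sets unequal between the groups. Such counts, here and for the subunit classes below, therefore also take in the difference between the sets. Within the sets, 25 of the 34 genes were lower with Cdh1 in set 1 (57.5% of all genes) and 30 in set 2 (54.4%). Lower values in both sets were found for 24 genes (31.6% of all genes and 37.7% of those above the 75th percentile). Higher values in both sets were found for 3 genes, Psma3, Psmd1 and Psmd14 (19.7% and 15.8%). In the other 7 genes the sets had opposite signs (48.7% and 46.5%). Across the 34 genes, the Cdh1 differences of set 1 and set 2 correlated at -0.048. The sizes of the differences were thus not shared between the sets. The median difference was -0.03, against -0.01 over all genes and -0.02 over the genes above the 75th percentile. The groups did not overlap for 5 genes that were lower with Cdh1 (8.36% of all genes) and for 2 that were higher (6.1%). The 5 were Psma6, Psmb1, Psmc3, Psmc5 and Psmd10, and the 2 were Psma3 and Psmd14, all named after their values were seen.

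The non-overlapping genes differed by little. Psmb1, a beta subunit without a catalytic site, had signals of 3.80 and 3.84 in control and 3.76 and 3.78 with Cdh1, for sets 1 and 2 in turn. For the ATPase Psmc3 the values were 6.78 and 6.82 in control and 6.74 and 6.75 with Cdh1. The alpha subunit Psma6 gave 5.17 and 5.21 in control against 5.17 and 5.17 with Cdh1. The mean differences were -0.05 for Psmb1, -0.05 for Psmc3 and -0.02 for Psma6. The SE of each was 0.10 (limma), and 0.06 with the set as a block. Without the block 0.10 was the lowest SE of any subunit gene, so it does not measure the spread of these genes alone. Psmd10, an assembly chaperone also known as gankyrin, had 1.86 on both control arrays and 1.85 and 1.78 with Cdh1, a mean difference of -0.05 ± 0.10 (SE).

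**Figure D2:**
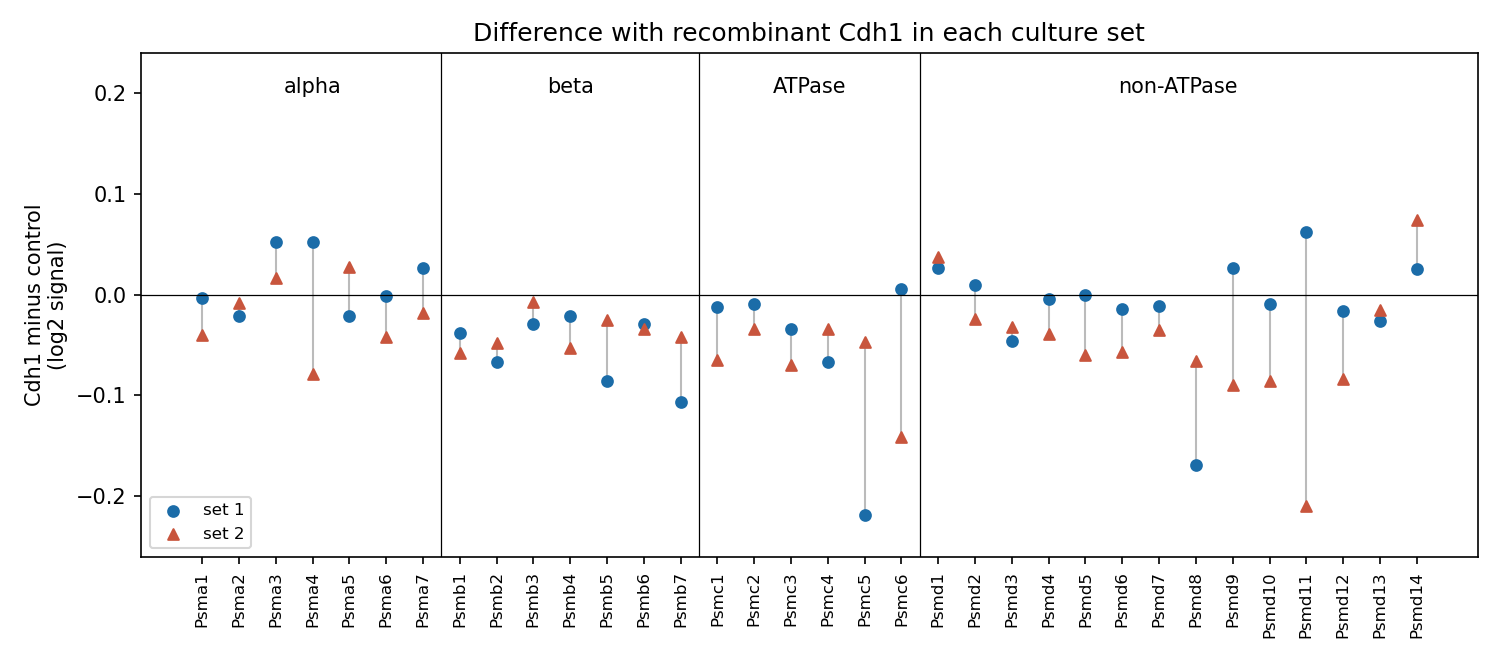
Each point is the difference of Cdh1 minus control (log2 signal) for 1 subunit gene in set 1 or set 2, with genes grouped by subunit class. The points lie close to 0 in every class, and Psmc5 in set 1 (-0.22) and Psmd11 in set 2 (-0.21) reach lowest.

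The beta subunits build the inner rings of the core. All 7 tested beta genes were lower with Cdh1 in both sets, as were 31.6% of all genes and 37.7% of those above the 75th percentile. The median difference was -0.05. After quantile normalization and in the authors' deposited table the count was 6 of 7 lower in the mean, and after background modelling 5. Without the control of set 1 the count was 3, and without the Cdh1 array of set 2 it was 5. Psmb5 encodes the subunit with chymotrypsin-like activity and is the main target of proteasome inhibitors. Its signals were 4.08 (control) and 3.99 (Cdh1) in set 1 and 3.91 (control) and 3.89 (Cdh1) in set 2. The Cdh1 value of set 1 lay above both values of set 2, and the Cdh1 difference was -0.06 ± 0.12 (SE; limma adjusted p = 1). Psmb6, the caspase-like subunit, had signals of 5.93, 5.90, 5.96 and 5.93 in the same order, a difference of -0.03 ± 0.10 (SE). For Psmb7, the trypsin-like subunit, the signals of 3.90, 3.79, 3.78 and 3.74 gave -0.07 ± 0.11 (SE). Control and Cdh1 values overlapped for all 3 catalytic genes. Psmb2, a beta subunit without a catalytic site, had signals of 1.09, 1.02, 0.98 and 0.93 and a difference of -0.06 ± 0.11 (SE), while its second probe differed by 0.04 in the opposite direction.

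The alpha subunits form the gate. Of the 7 tested alpha genes, 3 were lower in both sets (31.6% of all genes) and 1 was higher in both (19.7%). The median difference was -0.01. In the mean 4 were lower, and this number was 0 after quantile normalization and in the authors' deposited table, 2 after background modelling, 7 after median centring, and 1 without the Cdh1 array of set 2 or 2 without the control of set 1. Psma3 had signals of 5.61 and 5.63 in the control arrays and 5.66 and 5.64 in the Cdh1 arrays of sets 1 and 2. Both Cdh1 values lay above both controls, by 0.03 ± 0.10 (SE) in the mean (limma adjusted p = 1), but its second probe differed by -0.02. Psma1 gave 4.04 and 3.95 in control and 4.04 and 3.91 with Cdh1, a difference of -0.02 ± 0.11 (SE), with overlapping groups.

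The ATPases drive unfolding of the substrate. In the mean all 6 were lower with Cdh1, also after quantile normalization and median centring, whereas after background modelling and in the authors' deposited table there were 5, and without the control of set 1 or the Cdh1 array of set 2 there were 4. In both sets 5 of the 6 were lower (31.6% of all genes), and the median difference was -0.05. Psmc5 showed the largest difference of any constitutive subunit gene. Its signals were 4.58 (control) and 4.37 (Cdh1) in set 1 and 4.53 (control) and 4.49 (Cdh1) in set 2. Both Cdh1 values lay below both controls, and the array of Cdh1 set 1 was the lowest of the 4. The group means were 4.56 ± 0.04 in control and 4.43 ± 0.08 with Cdh1 (SD, n = 2), a difference of -0.13 ± 0.11 (SE; limma adjusted p = 1). Psmc6 gave 4.97, 4.97, 5.09 and 4.95, so that its difference of -0.07 ± 0.11 (SE) came from set 2.

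The 14 non-ATPase genes divide into subunits of the base, subunits of the lid and assembly chaperones. In the mean 12 were lower with Cdh1, against 9 after quantile normalization, 11 after background modelling, 14 after median centring, 8 in the authors' deposited table, 6 without the control of set 1 and 5 without the Cdh1 array of set 2. The base subunits Psmd1, Psmd2 and Psmd4 had a median difference of -0.0070, the 8 lid subunits -0.04 and the 3 chaperones -0.03. Psmd11, a lid subunit that clamps lid, base and core together, had signals of 2.13 (control) and 2.19 (Cdh1) in set 1 and of 2.33 (control) and 2.12 (Cdh1) in set 2. The control of set 2 stood above the other three, and the mean difference was -0.07 ± 0.13 (SE). Psmd14, the deubiquitinase that removes the ubiquitin chain, had 4.12 and 4.09 in control and 4.15 and 4.17 with Cdh1. Both Cdh1 values exceeded both controls, by 0.05 ± 0.10 (SE; limma adjusted p = 1).

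Between the independent sets, 1 constitutive subunit gene passed the adjusted threshold, the lid gene Psmd8. It was 1 of 34 genes (limma, adjusted p under 0.05), whereas 17.5% of all genes and 14.5% of those above the 75th percentile passed the same test. Lower values in set 2 passed for 10.5% of all genes and higher values for 7% of them. At an unadjusted p under 0.05 the subunit genes were Psmd4 and Psmd8, 2 of 34 against 39.5% of all genes. Without any 1 of the 4 arrays, 0 subunit genes and 0 of all genes passed. With limma's trend and robust options 12 subunit genes passed, 11 of them lower in set 2, against 41% of all genes passing and 23.9% passing as lower. Among genes above the 75th percentile 48.2% passed, and 29.3% passed as lower. With the treatment as a block 0 subunit genes passed, against 6.06% of all genes. In bulk RNA fewer cells of one kind cannot be told apart from less RNA per cell.

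Psmd8 encodes a small lid subunit that joins late in lid assembly and is needed for the lid to dock onto the base. Its probe (RefSeq accession NM_026545) gave signals of 4.76 (control) and 4.59 (Cdh1) in set 1 and of 4.12 (control) and 4.05 (Cdh1) in set 2. Both arrays of set 2 were below both arrays of set 1, and within each set the Cdh1 array was the lower. The set means were 4.67 ± 0.12 and 4.09 ± 0.05 (SD, n = 2), a difference of -0.58 ± 0.08 (SE; 95% interval -0.82 to -0.35; limma adjusted p = 0.032), so that the level in set 2 was 0.668 times that in set 1. The set difference was -0.63 between the controls and -0.53 between the Cdh1 arrays. With the treatment as a block the limma adjusted p was 0.053, without the filter on dim probes it was 0.152, and without any 1 of the arrays it was 0.081 to 0.145. The smallest two-sided p of an exact permutation test is 0.333 with 2 arrays in each set. The gene has 1 probe, printed as 1 spot, so that no second probe could be compared. The difference of Cdh1 against control was -0.12 ± 0.31 (SE; limma adjusted p = 1). With the set as a block its SE was 0.07 and its 95% interval -0.33 to 0.09.

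The upstream sequence of Psmd8 is shown because it is the 1 subunit gene that passed the adjusted threshold between the sets without a block. It comes from the RefSeq promoter table of the assembly GRCm38.p6 and runs 5′ to 3′ on the minus strand, chr7:29180674-29180923, ending 1 base before the annotated start. Capitals mark the only match to the GC box, GGGCGG, on either strand. The window held no match to the CCAAT box, to the E-box CACGTG or to the antioxidant response core TGACNNNGC.
Psmd8: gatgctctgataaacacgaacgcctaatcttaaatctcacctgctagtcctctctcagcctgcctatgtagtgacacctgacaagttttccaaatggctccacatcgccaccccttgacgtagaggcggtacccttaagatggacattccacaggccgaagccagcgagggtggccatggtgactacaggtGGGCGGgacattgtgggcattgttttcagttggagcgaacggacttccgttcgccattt

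**Figure D3:**
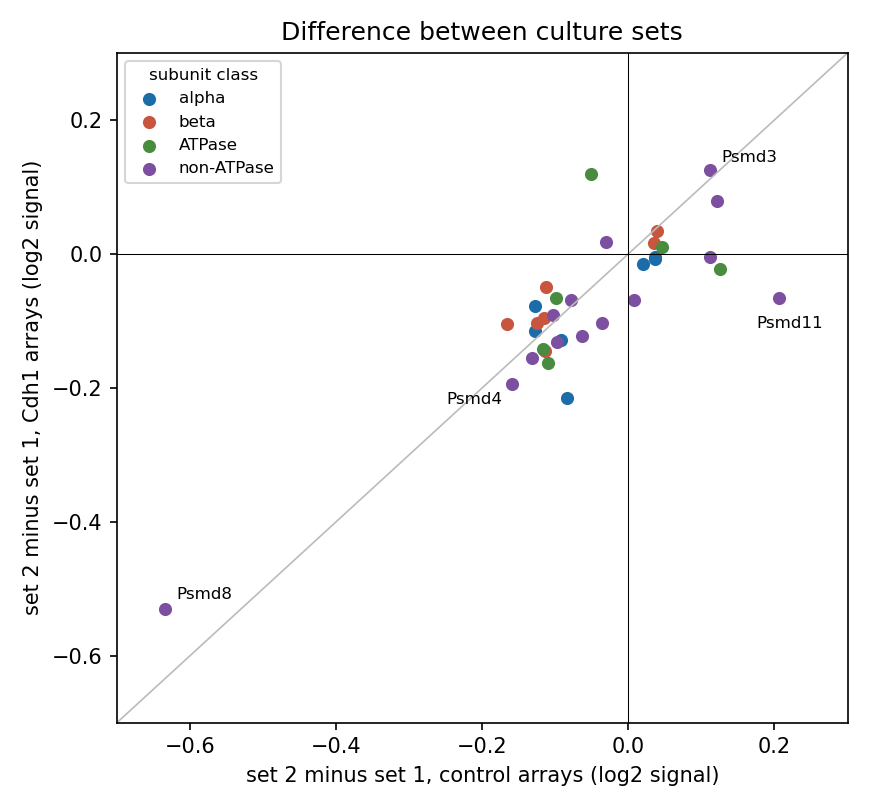
Each point is 1 subunit gene, coloured by subunit class, with its difference of set 2 minus set 1 (log2 signal) in the control arrays on the horizontal axis and in the Cdh1 arrays on the vertical axis, and a grey line where both are equal. Psmd8 lies at -0.63 and -0.53, and the other genes lie between -0.22 and 0.21 on both axes.

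Most set differences of the subunit genes were small. All 34 had an SD of 0.12 on the log2 scale, against 0.41 over all genes and 0.27 over genes above the 75th percentile, and these figures are a description with no test. Without Psmd8, left out after its value was seen, the SD of the other 33 was 0.08. A mean difference of at least 1.1-fold was found for 4 of the 34 genes, Psma4, Psmd4, Psmd7 and Psmd8, against 56.9% of all genes and 48.3% of those above the 75th percentile. At 1.5-fold or more there were 0 subunit genes and 9.99% of all genes, with Psmd8 just below that value. In the mean 22 of the 34 genes were lower in set 2 (54.5% of all genes). The count was 21 after quantile normalization (51.33% of all genes) and 21 after background modelling (50.79%). It was 27 after median centring (59.96%) and 20 in the authors' deposited table (46.97%). The median set difference was -0.08, against -0.03 over all genes. The sets did not overlap for 20 genes that were lower in set 2 (40.7% of all genes) and for 3 that were higher (31.5%). The 3 were Psmb6, Psmd3 and Psmd6, named after their values were seen.

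**Figure D4:**
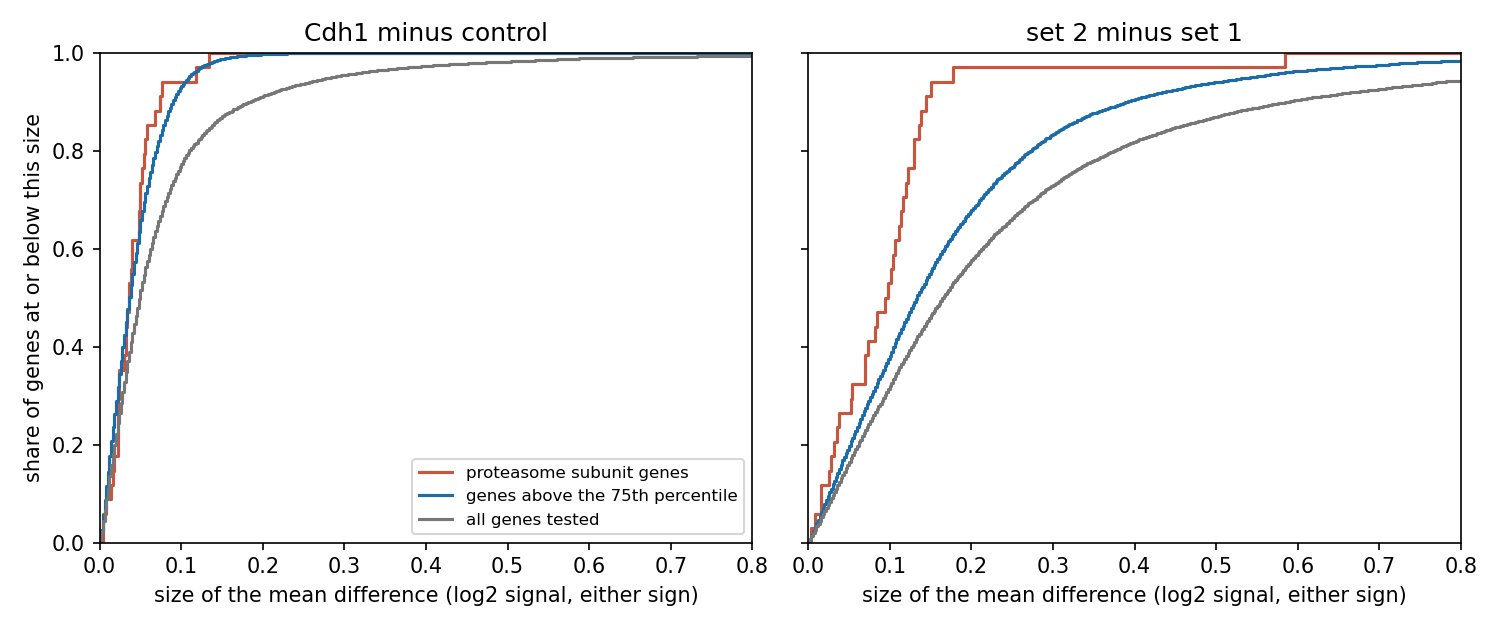
The vertical axis gives the share of genes whose mean difference (log2 signal, either sign) is at or below the size on the horizontal axis, for Cdh1 minus control on the left and set 2 minus set 1 on the right. For Cdh1 the median size of the subunit genes (0.035) is near that of genes above the 75th percentile (0.036), and for the sets it is 0.095 against 0.133.

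In the core particle the set differences of the alpha genes had a median of -0.10 and those of the beta genes -0.11. Psma4, an alpha subunit, had signals of 5.34 and 5.39 in set 1 and 5.26 and 5.18 in set 2, control before Cdh1. Set 2 lay below set 1 by 0.15 ± 0.06 (SE; limma adjusted p = 0.178), and all 4 of its probes were lower in set 2. Psma2 gave 5.69 and 5.67 in set 1 and 5.56 and 5.56 in set 2, a difference of -0.12 ± 0.05 (SE; limma adjusted p = 0.188). Psmb5 was lower in set 2 by 0.14 ± 0.06 (SE; limma adjusted p = 0.201) from the signals given above. Psmb4, a beta subunit without a catalytic site, gave 5.92 and 5.90 against 5.81 and 5.75, a difference of -0.13 ± 0.05 (SE; limma adjusted p = 0.187). For each of these 4 genes, named for their set differences, both values of set 2 were below both of set 1. The same held for 40.7% of all genes and 44.9% of those above the 75th percentile. None of the 4 passed the adjusted threshold. Psmb6 differed by 0.04 ± 0.05 (SE; limma adjusted p = 0.659) and its second probe by -0.01, and Psmb7 by -0.08 ± 0.07 (SE; limma adjusted p = 0.429).

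In the regulatory particle the ATPase genes had a median set difference of -0.03, which became 0.03 after quantile normalization and 0.02 after background modelling and in the authors' deposited table. Psmc1 had signals of 6.40 and 6.39 in set 1 and 6.29 and 6.23 in set 2, a difference of -0.14 ± 0.06 (SE; limma adjusted p = 0.179). Psmc2 gave 5.54 and 5.53 against 5.42 and 5.39, or -0.13 ± 0.05 (SE; limma adjusted p = 0.175). Both ATPase genes, named for their set differences, were lower on each array of set 2, as were 40.7% of all genes. Neither passed the adjusted threshold. Psmd4, the base's ubiquitin receptor, gave 5.89 and 5.88 in set 1 and 5.73 and 5.69 in set 2, the next largest difference after Psmd8 at -0.18 ± 0.05 (SE; limma adjusted p = 0.107). Its second probe was lower by 0.16. In the opposite direction, the lid gene Psmd3 had 5.52 and 5.48 in set 1 and 5.64 and 5.60 in set 2, or 0.12 ± 0.05 (SE; limma adjusted p = 0.214). Its second probe differed by 0.38 (limma adjusted p = 0.070), and all 3 probes of the lid gene Psmd6 were higher in set 2, by 0.09 to 0.16.

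The assembly chaperones spanned both directions between the sets. Psmd5 had signals of 1.33 and 1.33 in set 1 and 1.27 and 1.21 in set 2, a difference of -0.09 ± 0.06 (SE). Psmd9 had 0.57 and 0.59 against 0.68 and 0.59, or 0.05 ± 0.06 (SE), and Psmd10 differed by -0.03 ± 0.06 (SE). The sets overlapped for Psmd9 and Psmd10 but not for Psmd5, which was lower in set 2 like 40.7% of all genes. Psmd7, the lid subunit that pairs with the deubiquitinase Psmd14, had 3.24 and 3.23 in set 1 and 3.11 and 3.08 in set 2, a difference of -0.14 ± 0.05 (SE; limma adjusted p = 0.149). Psmd14 itself differed by -0.0066 ± 0.06 (SE), and whether the pair differed in this was not tested.

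Agreement between probes was examined for the 15 subunit genes that had more than 1 tested probe. The signs of the Cdh1 differences disagreed in 6 of these genes and the signs of the set differences in 4. The median gap between the highest and the lowest probe of a gene was 0.035 for Cdh1 and 0.0625 for the sets. The gaps for Cdh1 were thus of the size of the differences themselves, whose median size was 0.035.

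The upstream sequences of 29 of the 36 subunit genes were found in the RefSeq table, as 31 windows of 250 bases. The core of the antioxidant response element, TGACNNNGC on either strand, is the sequence that the Nfe2l1 and Nfe2l2 proteins recognise. It occurred in 5 of the 31 windows (16.1%), against 10.2% of all 32851 windows of that length in the table. The GC box GGGCGG was present in 17 windows (54.8%, against 32.7%), CCAAT in 12 (38.7%, against 33.8%) and CACGTG in 2 (6.45%, against 6.02%), on either strand. These are matches of letters in a window and not binding sites. The 5 matches to TGACNNNGC are shown with up to 16 bases on each side because they mark the subunit genes with this core, in capitals as it or its reverse complement reads on the strand of the gene, from the table of GRCm38.p6. They lie at chr14:54618018-54618058 on the minus strand (Psmb5) and, on the plus strand, at chr11:70525332-70525356 (Psmb6), chr14:45329581-45329621 (Psmc6), chr11:107479278-107479305 (Psmd12) and chr5:123228143-123228183 (Psmd9).
Psmb5: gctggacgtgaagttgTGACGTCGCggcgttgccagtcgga
Psmb6: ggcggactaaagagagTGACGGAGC
Psmc6: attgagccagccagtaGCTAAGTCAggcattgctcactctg
Psmd12: tctGCTGTGTCAcatttgcccccctcag
Psmd9: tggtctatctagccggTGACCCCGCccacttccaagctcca

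The ranges of these genes overlapped with those of the other subunit genes, while the medians lay apart, which was not tested. The 5 genes with the core had Cdh1 differences of -0.07 to -0.03 (median -0.05) and set differences of -0.14 to 0.05 (median 0.04). The 23 tested genes with a window that lacked it had Cdh1 differences of -0.13 to 0.05 (median -0.02). Their set differences were -0.58 to 0.10 (median -0.10). Psmb5, with the core, was lower in set 2, whereas Psmb6 and Psmc6, also with the core, differed by 0.04 and 0.05.

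Genes that act with the proteasome were examined through 8 lists of 52 genes, of which 50 were on the array by name and 48 were tested. With Cdh1, 0 of them passed the adjusted threshold (limma). The Cdh1 differences of these lists lay between -0.12 for Psmf1, which encodes an inhibitor of the core, and 0.12 for the heat shock chaperone gene Hspa8. Nfe2l1, the activator of subunit genes, had signals of 4.17 (control) and 4.12 (Cdh1) in set 1 and of 4.14 and 4.10 in set 2. Its Cdh1 difference was -0.04 and its set difference -0.03, each below 0.05 in size.

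Between the sets 4 of the 48 genes passed, 1 higher and 3 lower, against 17.5% of all genes, and none passed without any 1 of the arrays. The immunoproteasome gene Psmb9 had signals of -3.88 and -3.84 in set 1 and -4.56 and -4.75 in set 2, a difference of -0.80 (limma adjusted p = 0.020, and 0.052 with the treatment as a block). Among the other immunoproteasome genes, Psmb10 differed by 0.03 and Psmb8 was well above background on 0 arrays. Maff, a small Maf protein that pairs with the Nfe2l factors, had -4.49 and -4.62 in set 1 and -3.59 and -3.61 in set 2, a rise of 0.96 (limma adjusted p = 0.013). The heat shock gene Hsp90aa1 was at 6.39 and 6.33 in set 1 and at 6.02 and 5.94 in set 2, a difference of -0.38 (limma adjusted p = 0.040, and 0.068 with the treatment as a block). For Hspb1, a small heat shock protein, -1.78 and -1.75 in set 1 stood against -2.86 and -2.91 in set 2, a difference of -1.12 (limma adjusted p = 0.009). All 8 tested heat shock chaperone genes were lower in set 2 in the mean (54.5% of all genes), with a median difference of -0.13. Psmb9 and Maff were well above background on all arrays, but at signals of -4.75 to -3.59 their differences rest on low intensities. In every one of the 4 genes that passed the sets did not overlap, as in 40.7% (lower) and 31.5% (higher) of all genes. No gene of the other 5 lists passed. Their largest set differences were 0.30 for the proteasome-bound deubiquitinase gene Uchl5, -0.23 for Psmf1, -0.11 for the assembly chaperone gene Psmg1, -0.24 for the polyubiquitin gene Ubb and -0.22 for Nploc4, a cofactor of the unfolding enzyme Vcp.

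Markers of the cells also differed between the sets. Of the 7 melanocyte markers, Tyr (-1.77), Pmel (-0.42) and Mitf (-0.39) were lower in set 2 at an adjusted p under 0.05 (limma) and 0 were higher, against 10.5% of all genes lower and 7% higher. Without any 1 of the arrays, 0 of all genes passed. The summed level of the 7 melanocyte markers was 10.60 and 10.57 in set 1 and 10.37 and 10.36 in set 2. It is the log2 of their added linear signals, so the brightest genes weigh most. Of 6 fibroblast markers, 3 were tested and 2 of these, Col1a1 and Pdgfra, were lower by the same test. The summed level of all 6, untested genes included, was 1.82 and 1.73 in set 1 and 1.48 and 1.41 in set 2. No tested leukocyte (4 of 6), epithelial (2 of 5) or endothelial (1 of 4) marker passed. The part of these shifts in the set difference of Psmd8 was not tested.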

How the data were processed

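Total RNA of the 4 cultures (100 ng each) was labelled with Cy3 and hybridised to Agilent one-colour arrays, per the labels' protocols. The authors read them with Agilent Feature Extraction 12.0.3.1, per the file headers. For each spot the authors' scanner output lists a processed intensity on a linear scale, with background subtracted. All arrays were on 1 slide and in 1 scan. The authors' deposited table holds the same intensities times 1 factor per array (0.8735 to 0.9304).

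Here, the log2 processed intensity was taken relative to its 75th percentile over the non-control spots of an array. Spots of a probe were averaged, without outlier spots (115 to 143 per array). Probes above background on both arrays of a treatment group (32568) were tested with limma 3.58.1 in R 4.3.3 (lmFit, eBayes, no block, Benjamini-Hochberg over all probes, threshold 0.05). A gene took its brightest probe. Of 35269 RefSeq probes, 33767 matched a symbol of GRCm38.p6. Coordinates are those of the promoter table. Probe positions were not used.

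The design text states that the sets are independent, and the titles number them. Deviations of same-numbered arrays from their group means correlated at 0.745, so the set was also fitted as a block. Other settings were quantile normalization, normexp background modelling, median centring, the authors' table, no filter, the mean of probes, trend and robust eBayes, and leaving out arrays or the last 24 rows of spots. The fit was also run on simulated data with independent noise, no difference between sets and changes larger than those of the subunit genes. That run does not show how the fit performs on differences of the size seen here.

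Named by rule were the catalytic genes, in each subunit class the 2 genes with the largest difference in each comparison, genes called, and from each other list those called or otherwise the largest difference. The chaperones, Psma6, Psmb1, Psmc3, Psmd1, Psmd2, Psmd3, Psmd6, Psmd7, Psmd14 and genes with a TGACNNNGC match were named in addition. The members and lists were chosen with earlier results of these data known.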

Additional observations from a re-analysis of the deposited data

Results flagged for a closer look

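The Cdh1 difference of Psmc6, an ATPase gene, had opposite signs in the sets, at 0.0060 in set 1 and -0.14 in set 2. The sets differed by -0.15. That of the lid gene Psmd11 was 0.06 in set 1 and -0.21 in set 2, and the sets differed by -0.27. Both are listed because, among the genes named for their Cdh1 difference, the pairs of the sets differed in opposite directions. Opposite signs occurred in 7 of the 34 subunit genes and in 48.7% of all genes. With 1 pair in each set this difference was not tested.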

How the results depend on the processing

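For Cdh1 against control, 0 subunit genes passed the threshold under every setting tried, with an unadjusted p under 0.05 in 0 genes as well, and 0 with the set number as replicate block. The block cannot move a mean difference in this balanced design, so the median difference of the subunit genes is -0.032 in both fits. That median was -0.011 after quantile normalization, -0.097 after median centring, -0.0075 in the authors' deposited table and -0.076 to 0.011 without 1 array. For the sets the median of -0.082 was -0.025 after quantile normalization, -0.030 with background modelling added, -0.114 after median centring, -0.034 in the authors' table, -0.071 for the mean of a gene's probes and -0.094 to -0.061 without 1 array. The 1 subunit gene called between the sets became 0 after median centring, 0 with no filter on dim probes, 0 with the treatment as a block, 0 without any 1 array and 12 with limma's trend and robust options. The 4 other pathway genes became 11 after background modelling, 0 with no filter, 2 with the treatment as a block, 22 with the trend and robust options and 0 without any 1 array. The set difference of Psmd8 kept its sign, at -0.67 to -0.50. Signs of uncalled Cdh1 differences turned for Psma1 (0.0015 after quantile normalization, 0.0025 in the authors' table, -0.086 to 0.043 without 1 array) and Psma3 (-0.031 after median centring). Without 1 array they ran from -0.11 to 4.8e-05 for Psmb2, -0.14 to 0.028 for Psmb5, -0.18 to 0.029 for Psmd11 and -0.43 to 0.20 for Psmd8. With the sign kept, they ran from -0.19 to -0.073 for Psmc5, -0.13 to -0.0050 for Psmc6 and -0.13 to -0.018 for Psmb7. Without 1 array the sets are unequal between the groups. These ranges, and that of the Cdh1 median, therefore also take in the set difference. The causes were not tested. The intervals given are for single genes and unadjusted, so they are not a limit of detection. With 2 arrays a group, 0 of the 14450 genes passed for Cdh1, although mean differences ran from -4.10 to 3.61.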
